A study of Danio rerio with 9 samples.

Results

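The 20 windows of 1 Mb with the most ATAC-seq peaks in zebrafish (Danio rerio) spermatozoa, chromosome 4 left aside, are described here. Every peak of 9 lists on chromosomes 1 to 25 without 4 was assigned to a window by its midpoint, the peaks were summed over the lists, and the 20 windows with the highest sums were taken. These windows held 12452 of the 198274 peaks on the 24 chromosomes. Merged across lists where they overlapped by at least 1 bp, they formed 5037 regions, out of 126838 regions in the whole series and 100858 on the 24 chromosomes. The windows were chosen by their number of peaks. That number, and the recurrence of peaks that feeds it, are thus given as a description, without a test against other windows.

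Spermatozoa came from males 7 days after cardiac cryoinjury, a lesion set by freezing part of the heart (5 libraries), and from uninjured control males (4 libraries), each library made from 100000 spermatozoa. The males were adult; strain, exact age and batch are not given, nor whether each library stands for a separate male, so a p-value covers no more than the variation among these libraries, which may be technical. The injured lists held 15508 to 29622 peaks and the control lists 30126 to 45277. By the labels 4.6 to 29 M reads per library were retained, without the number for each one, so an absent peak means only that none was detected. The longer control lists supplied 55.8% of the peaks from which the windows were chosen.

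In ATAC-seq the transposase Tn5 cuts where DNA is not shielded, and a peak marks a stretch with more cuts than its surroundings. The sperm of zebrafish is known to keep its DNA on histones rather than on protamines, which replace most histones in mammalian sperm. Places where such chromatin is open to the enzyme often lie at promoters and enhancers, which are known to keep nucleosomes apart. Positions are those of GRCz11, the build named in the submitters' processing notes. The genes in these windows and their sequences were not analysed here, because the annotation at hand belongs to another build.

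The windows lay on 11 of the 24 chromosomes, and chromosome 11 held the most. In order of their sums they are numbered 1 to 20. Windows 1, 3, 9 and 12 began at 39, 9, 8 and 42 Mb of chromosome 11, with 787, 745, 623 and 582 summed peaks. Windows 4, 13 and 20 began at 12, 3 and 40 Mb of chromosome 24, with 682, 568 and 534. Chromosomes 11 and 24 thus contributed 4 and 3 windows, and no other chromosome more than 2. Windows 2 and 14 began at 36 and 5 Mb of chromosome 16 (749 and 567 peaks), windows 5 and 17 at 3 and 6 Mb of chromosome 10 (676 and 556), windows 6 and 19 at 8 and 7 Mb of chromosome 5 (658 and 540), and windows 15 and 16 at 15 and 48 Mb of chromosome 8 (559 and 558). Single windows lay on chromosome 12 (window 7, from 14 Mb, 655 peaks), chromosome 19 (window 8, from 23 Mb, 628), chromosome 17 (window 10, from 7 Mb, 618), chromosome 20 (window 11, from 43 Mb, 612) and chromosome 25 (window 18, from 26 Mb, 555). Windows 3 and 9 on chromosome 11, and windows 6 and 19 on chromosome 5, adjoin each other and form 2 blocks.

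The sums of the 20 windows averaged 4.03 times the mean of 155 over all 1282 windows with a peak. By their sums the last windows taken were not set apart from the first ones left out. Windows 18, 19 and 20 had 555, 540 and 534 peaks, and the next windows in order, on chromosomes 12, 15 and 20, had 531, 526 and 522. Of the 20 windows, 13 had their centre within 10 Mb of the first base or of the last peak of their chromosome, against 38.5% of the other 1253 windows with at least 18 summed peaks. The median distance to the nearer of these points was 8 Mb in the 20 windows and 13.1 Mb in the other 1253. In the next 20 windows by sum it was 7.15 Mb, so nearness to an end was not particular to the 20. Window 20 lay nearest to an end, with its centre 1.67 Mb from the last peak of chromosome 24, and window 8 lay farthest, 23.5 Mb from the first base of chromosome 19.

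Windows chosen without a library were also dense in that library. The lists share a build and a set of tools, so this is a description and no independent test. When each library in turn was set aside and the windows were chosen on the other 8 lists, 17 to 19 of the 20 windows were found again. The windows so chosen held 5.36% to 6.96% of the peaks of the library set aside, although they are 1.56% of the windows, a ratio of 3.44 to 4.46. The ratio was lowest for control library 2 and highest for injured library 3. Chosen from one list alone, the 20 densest windows included 11 to 16 of those taken from all lists.

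**Figure D1:**
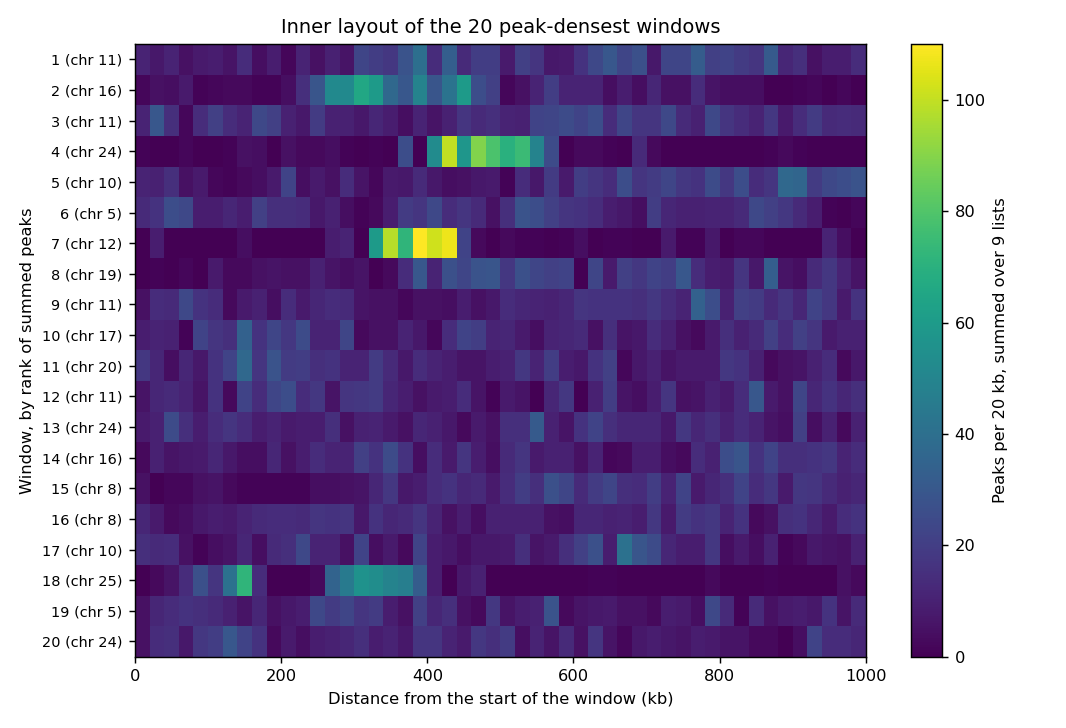
Peaks per 20 kb, summed over the 9 lists (colour), along each of the 20 windows, which run down the page in order of their sums; the horizontal axis is the distance from the start of the window in kb. In windows 2, 4, 7 and 18 the peaks crowd into a short stretch, and in the other 16 windows they spread over the whole megabase.

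By the share of peaks in their densest 100 kb the windows fell into 2 kinds. In windows 2, 4, 7 and 18, on chromosomes 16, 24, 12 and 25, the densest 100 kb held 32.3%, 55.6%, 51.9% and 42.9% of the window's peaks. In the other 16 windows it held less than 24%, down to 13.6% in window 13 on chromosome 24. Window 13 was thus nearly flat and window 4 was packed. The 16 windows were not all evenly filled. Their emptiest 100 kb held from 3 peaks in window 8 and 12 in window 15 up to 43 in window 3. In windows 5, 8 and 15 fewer peaks lay in the first part than in the rest. Over the other 1253 windows with at least 18 summed peaks the median of this share was 25% and the highest 84.9%. Among all 1273 windows, windows 2, 4, 7 and 18 stood at places 311, 26, 38 and 102 by it. Such packing was thus not particular to them. The densest 100 kb was the same one in 9 of 9 libraries for windows 2, 4 and 7 and in 8 of 9 for window 18. The same held in 9 of 9 for window 17 on chromosome 10, where it had 22.8% of the peaks. In window 13 only 2 libraries had their own maximum in the 100 kb that was densest in the sum.

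The packed windows also had longer empty stretches than the other 16. The longest stretch without a peak in any list measured 166 kb in window 4, 125.6 kb in window 7, 161 kb in window 18 and 60.6 kb in window 2. In the other 16 windows it ranged from 12.8 kb in window 13 to 48.0 kb in window 8, while its median over the other 1253 windows was 123 kb. Every 100 kb of the window held a peak in 19 of the 20 windows, window 18 being the exception, and in 51.2% of the other windows. The merged regions covered from 6.30% of window 18 to 12.3% of window 3, against a median of 1.70% elsewhere. In the next 20 windows by sum every 100 kb held at least 1 peak. There the median of the longest empty stretch was 30.1 kb and the median cover was 7.95%. Peaks in every 100 kb and high cover were thus shared by the next densest windows.

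The same sum was reached in different ways. A window's sum is its number of regions times the mean number of peaks per region. Window 3, on chromosome 11, had the most regions of any of the 1273 windows, 357, with 2.09 peaks per region. Window 4, on chromosome 24, had 123 regions and stood only at place 272 by that count, but it had the most peaks per region of all, 5.54. Window 7, on chromosome 12, was the runner-up in peaks per region, with 5.504 over 119 regions. Windows 2 and 18 lay in between, with 216 regions of 3.47 peaks and 149 regions of 3.72 peaks. The other 16 windows had 230 to 357 regions with 1.87 to 2.73 peaks each. All but window 13 lay above the median of 1.94 peaks per region outside the 20 windows. By peaks per region they stood at places from 140, for window 8, to 727, for window 13. Their number of regions stood out more, since the median elsewhere was 55.

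With each list shortened to its 15508 strongest peaks, the length of the shortest list, the packed windows moved to the top. Windows 4, 7, 2 and 18 then had 644, 611, 576 and 481 summed peaks and took places 1, 2, 3 and 4 among all windows. The other 16 took places from 5, for window 1 with 414 peaks, to 45, for window 16 on chromosome 8 with 237. The order within the 20 thus turned on how far down the lists were read.

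**Figure D2:**
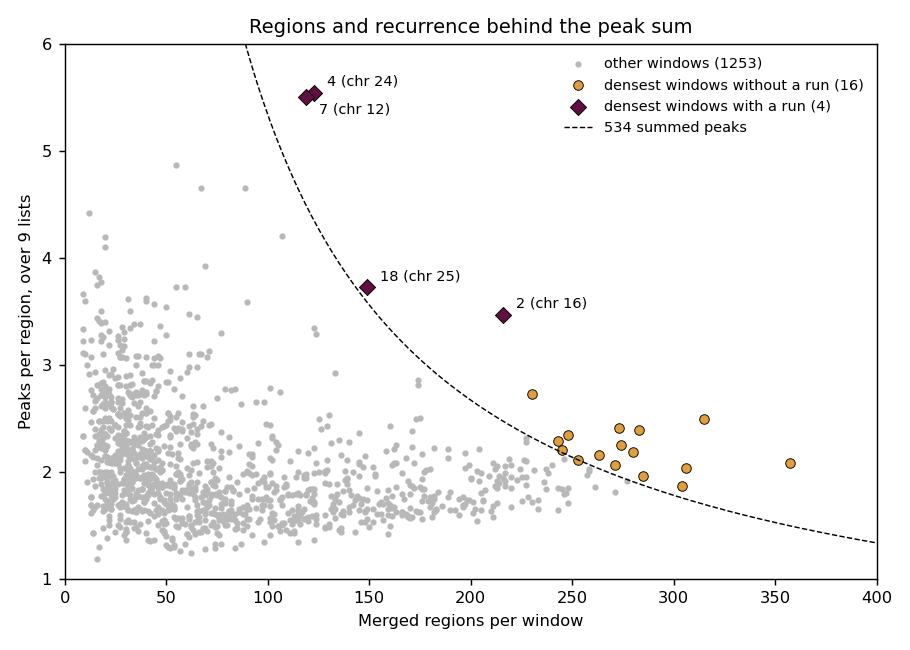
Merged regions per window (horizontal axis) and peaks per region over the 9 lists (vertical axis) for the 1273 windows with at least 18 summed peaks; diamonds mark the 4 windows with a run of recurrent regions, circles the other 16 of the 20 densest windows, grey points all other windows, and the dashed line joins points with 534 summed peaks. Windows 4 and 7 reach the line with 123 and 119 regions of more than 5 peaks each, and the circles reach it with 230 or more regions of 1.87 to 2.73 peaks.

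Most regions of the windows were seen once. Of the 5037 regions, 2619 (52.0%) were detected in 1 list, 727 (14.4%) in at least 5 and 146 (2.90%) in all 9. Outside the windows, on the same chromosomes, the shares were 63.7%, 8.42% and 1.23% of 95821 regions. The next 20 windows by sum held 4716 regions, of which 57.6% were detected in 1 list, 9.75% in at least 5 and 0.785% in all 9. Windows 2, 4, 7 and 18 together had 607 regions, of which 31.6% were detected in 1 list, 37.9% in at least 5 and 14.2% in all 9. The other 16 windows had 4430 regions, with 54.8%, 11.2% and 1.35%. Recurrence was thus highest in the packed windows. The other 16 had a smaller share of regions of 1 list than the next 20, and larger shares of at least 5 and of all 9. Recurrence feeds the sum by which the windows were taken, so these shares carry no test. The merged regions covered a median of 9.21% of the 20 windows and 7.95% of the next 20, against 1.70% in the windows outside the 20. The part of cover in recurrence was not tested.

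Width went with recurrence. The median region width inside the windows was 201 bp for regions of 1 list, 537 bp for those of 5 lists and 872 bp for those of all 9, and outside it was 203, 535 and 747 bp. A merged region can only grow as more lists add to it, so that part of this increase is built into the merging. Regions detected in all 9 lists were also the strong ones. The median of their median place was the best 6.07% of the lists inside the windows and the best 7.91% outside. For regions detected once the median place was 68.2% inside and 69.1% outside. The place is the rank of a peak by the authors' score divided by the length of the list, so a low value is a strong peak.

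In each of the packed windows the regions detected in at least 5 lists formed a run, in which neighbouring midpoints lay no more than 10 kb apart. The one with the most such regions was in window 7 and ran from 14325977 to 14442450 on chromosome 12, 116 kb with 58 of them. Their midpoints were a median of 1874 bp apart, and their quartiles were 1349 and 2392 bp. The run held 86.7% of the window's peaks, and all its 78 regions together covered 49.8% of its length. The next by that number, in window 4, was the longest and ran from 12403230 to 12554819 on chromosome 24, 152 kb with 52 recurrent regions, of which 36 were detected in all 9 lists. Its midpoints were a median of 2270 bp apart, and it held 83.6% of the window's peaks. Each of these 2 runs had more recurrent regions than any run outside the 20 windows on the 24 chromosomes, where the highest number was 35.

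The runs in windows 18 and 2 were looser. On chromosome 25 the run went from 26265687 to 26388481, with 29 recurrent regions a median of 3923 bp apart and 56.4% of the window's peaks. The densest 20 kb of that window, with 72 summed peaks, lay before the run and was not part of it. On chromosome 16 the run went from 36264912 to 36359577, with 27 recurrent regions a median of 3426 bp apart and 34.7% of the window's peaks, and further recurrent regions followed beyond a longer gap. In the remaining 16 windows no run had more than 8 regions. Runs of at least 15 regions occurred in 5 of the other 1253 windows. The definition of a run and the minimum of 15 were chosen after the layouts had been seen.

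Over a whole run the spacing repeated weakly. The autocorrelation of the summed peak profile, for shifts of 1.5 to 15 kb, was at most 0.184 on chromosome 16, 0.135 on chromosome 24, 0.123 on chromosome 12 and 0.111 on chromosome 25, where 1 would be an exact repeat. Each run also had gaps that were free of peaks in every list. The longest was 8.39 kb on chromosome 24, from 12437349 to 12445734, and on chromosome 12 it was 6.50 kb, from 14374026 to 14380525.

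Part of the run on chromosome 12 was close to a regular repeat. The stretches of 30 kb with the strongest repetition were looked for after the tracks had been seen, with shifts of up to 10 kb, and are given without a test. On chromosome 12 the autocorrelation of the summed profile between 14406977 and 14436976 was 0.880 at a shift of 5006 bp and 0.757 at a shift of 2449 bp. In the other runs the highest value of any such stretch was 0.433 on chromosome 16, 0.445 on chromosome 24 and 0.440 on chromosome 25. In injured library 1 the stretch on chromosome 12 held 25 peaks, of which 12 were wider than 500 bp, and the starts of these 12 followed each other at 2322 to 2641 bp. In no other library were such starts so even. They lay 2263 to 10159 bp apart in injured library 4. In control libraries 1, 3 and 4 they lay 2504 to 5141, 2356 to 5020 and 922 to 4784 bp apart. Injured libraries 2, 3 and 5 and control library 2 had 1 or 0 peaks of that width there. In the separate libraries the autocorrelation at 5006 bp was 0.844, 0.2496, -0.0147, 0.546 and 0.650 in injured libraries 1 to 5, and 0.669, 0.526, 0.615 and 0.589 in control libraries 1 to 4. The value was low only in injured libraries 2 and 3, which had 11 peaks and 1 peak there, against 13 to 25 in the other 7 libraries. In stretches of 10 kb, with shifts of up to 3.3 kb, the highest value was 0.834 on chromosome 12, 0.817 on chromosome 25, 0.597 on chromosome 16 and 0.571 on chromosome 24. The one on chromosome 25 was at 2784 bp, between 26354687 and 26364686. Injured libraries 1, 2, 4 and 5 had 0.689, -0.0175, 0.233 and 0.642 at that shift. Control libraries 1, 3 and 4 had 0.306, 0.416 and -0.101. Injured library 3 and control library 2 had no peak in that stretch. Whether the DNA itself repeats there was not tested.

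**Figure D3:**
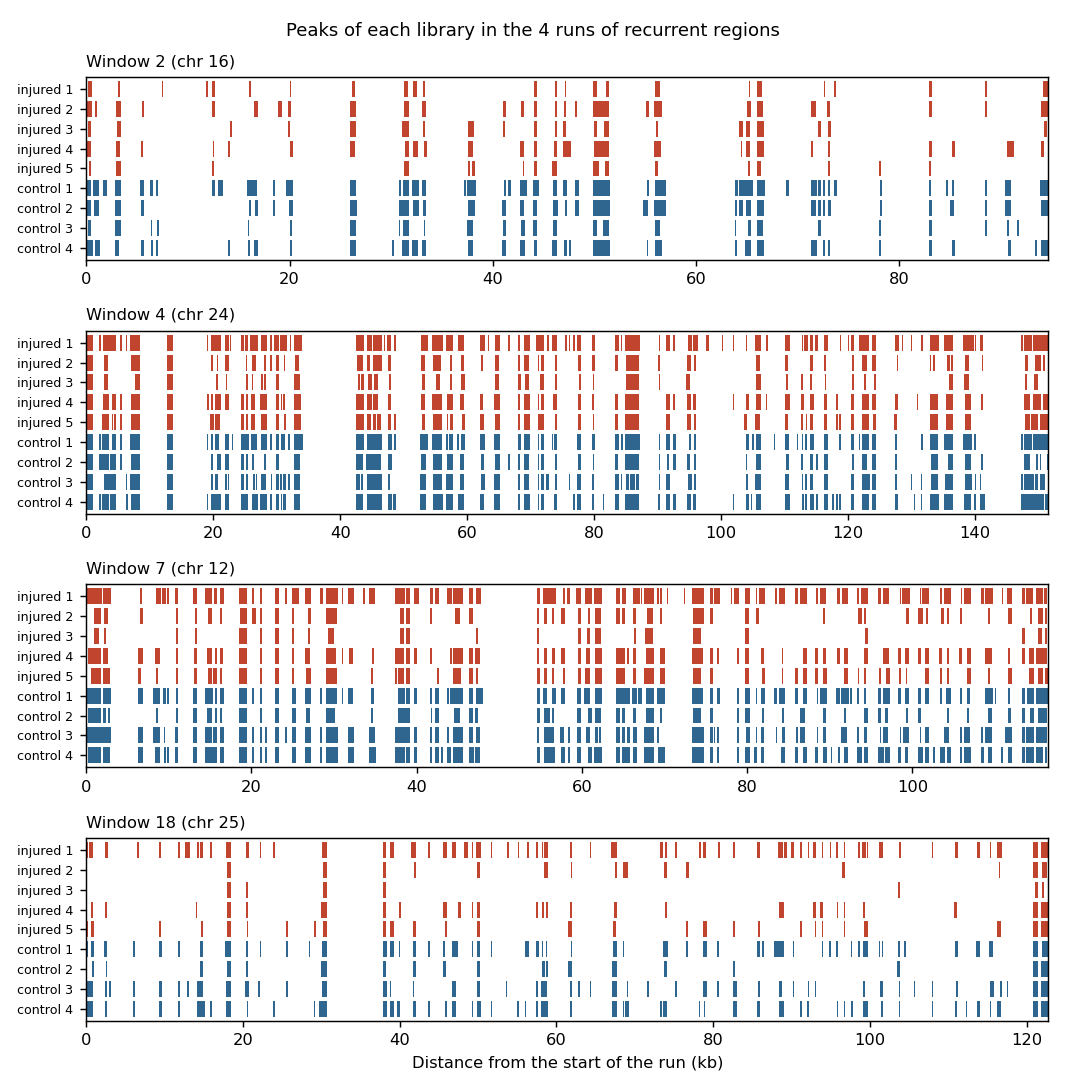
Peaks of each library (bars, injured libraries in red above, control libraries in blue below) along the 4 runs of recurrent regions, with the distance from the start of the run in kb on the horizontal axis. On chromosome 24, 36 of 87 regions recur in all 9 libraries, the right end of the chromosome 12 panel shows evenly spaced peaks, and injured library 3 has the fewest peaks on chromosomes 24, 12 and 25.

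The libraries did not fill the runs alike. On chromosome 25 the run held 64, 15, 7, 27 and 28 peaks in injured libraries 1 to 5, and 53, 19, 47 and 53 in control libraries 1 to 4. On chromosome 12 it held 85, 49, 25, 65 and 59 in injured and 77, 54, 75 and 79 in control libraries. On chromosome 24 it held 83, 53, 43, 62 and 59 in injured and 72, 58, 70 and 70 in control libraries. In all 3 runs injured library 3, which had the shortest list, had the fewest peaks, followed by injured library 2, and control library 2 had the fewest of the control group. On chromosome 16 the order was another one, with 24, 27, 21, 26 and 17 peaks in injured and 45, 36, 27 and 37 in control libraries.

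As shares of the lists the order changed in some runs. On chromosome 25 the run held 0.273%, 0.0741%, 0.0577%, 0.148% and 0.206% of the peaks in injured and 0.212%, 0.0712%, 0.199% and 0.150% in control libraries, and injured libraries 3 and 2 and control library 2 remained the lowest. On chromosome 12 the shares were 0.363%, 0.242%, 0.206%, 0.357% and 0.433% in injured and 0.308%, 0.202%, 0.318% and 0.224% in control libraries, with control library 2 lowest. On chromosome 24 they were 0.354%, 0.262%, 0.354%, 0.340% and 0.433% in injured and 0.288%, 0.217%, 0.297% and 0.198% in control libraries, with control library 4 lowest and injured library 3 among the higher ones. Injured libraries 2 and 3 and control library 2 also had the widest peaks outside the windows, with medians of 277, 277 and 249 bp, while the other 6 libraries had 189 to 240 bp. The part of list length and of peak width in the filling of the runs was not tested.

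Window 4 held some of the strongest peaks of every list. At 12368715 to 12369975 on chromosome 24, before the start of the run, a region of 1261 bp was detected in all 9 libraries. Among the peaks of its list it ranked 1, 3, 3, 2 and 2 in injured libraries 1 to 5, and 1, 2, 3 and 1 in control libraries 1 to 4. It was thus among the first 3 peaks of every list in both groups. A region at 12415949 to 12416829, inside the run, ranked 4, 8, 5, 5 and 5 in injured and 5, 10, 7 and 6 in control libraries. A region nearby, at 12378829 to 12380236, ranked 5, 11, 7, 6 and 7 in injured and 7, 8, 8 and 5 in control libraries. The regions at 12410080 to 12411760 and at 12403230 to 12404322 completed the 5 best-placed members, all of them in this window.

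Of the 100 best-ranked peaks of each list, 4 or 5 lay in window 4 and 0 in any of the other 19 windows. Of the 1000 best-ranked peaks, windows 2, 4, 7 and 18 held 93, 24, 31, 91 and 65 in injured libraries 1 to 5 and 115, 53, 66 and 85 in control libraries 1 to 4. Window 7, on chromosome 12, held 55, 14, 14, 42 and 27 of them in injured and 57, 17, 34 and 46 in control libraries, and window 4 held 29, 7, 12, 39 and 32 in injured and 36, 21, 24 and 31 in control libraries. Strong peaks were thus frequent in both of these windows, and neither was ahead in every library.

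In the 16 windows without a run strong peaks were few. Together they held 6, 9, 14, 14 and 11 of the 1000 best-ranked peaks in injured and 8, 12, 5 and 6 in control libraries, fewer than the 4 packed windows in every library. The groups overlapped in both kinds of window.

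The most recurrent regions of other windows differed in strength. In window 1, on chromosome 11, the region at 39790330 to 39790901, 1 of 6 detected in all 9 libraries, had its place at 13.5%, 9.50%, 79.4%, 11.8% and 8.31% in injured and at 20.1%, 9.61%, 93.0% and 5.48% in control libraries. It was weak in injured library 3 and control library 3 and better placed in the other 7. Window 3, on the same chromosome, had 0 regions detected in all 9 libraries, although 357 regions lay in it. The region detected most often there, at 9327909 to 9329046, was detected in 8 libraries and missed in injured library 5. By contrast the region at 3219057 to 3219849 of chromosome 10, in window 5, lay within the best 1.38% of every list, and it was the only region of its window detected in all 9. In window 2 the region at 36382995 to 36383837 of chromosome 16 lay within the best 5.62% of every list, and in window 12 the region at 42241212 to 42241779 of chromosome 11 within the best 23.0%.

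Peaks inside the windows were wider than peaks outside in all 9 libraries. The median width inside was 206, 304, 301, 265 and 253 bp in injured libraries 1 to 5, and 238, 279, 220 and 269 bp in control libraries 1 to 4. The widths outside were 189, 277, 277, 240 and 227 bp in injured and 210, 249, 205 and 240 bp in control libraries. Inside minus outside averaged 24.4 ± 5.14 bp (SD, n = 9; exact sign-flip permutation p = 0.00391, two-sided, the smallest that 9 libraries allow). The libraries share the same windows, so this test covers the spread between libraries and not that between windows. Regions of more lists were wider, partly through the merging, and recurrence feeds the sum. The width difference may thus not be independent of how the windows were chosen. In the 16 windows without a run the median width was 11.1 bp above that outside on average, in 9 of 9 libraries, and in the packed windows 123 bp above it.

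Peaks inside the windows were also placed better in their lists, and the packed windows carried this. The median place inside was 42.2%, 47.5%, 49.7%, 45.4% and 44.4% in injured libraries 1 to 5, and 41.4%, 44.0%, 46.2% and 47.8% in control libraries 1 to 4. Outside it was 51.1% to 53.1%. The difference averaged -6.47 ± 2.83 percentage points (SD, n = 9) and was below 0 in all 9 libraries (exact sign-flip permutation p = 0.00391, two-sided). Regions of more lists were also better placed, so this difference too may not be independent of how the windows were chosen. In windows 2, 4, 7 and 18 the median place was 7.60%, 16.3%, 17.3%, 9.66% and 11.3% in injured and 6.61%, 9.81%, 10.6% and 9.44% in control libraries. In the other 16 windows the median place was 54.6%, 55.6%, 53.6%, 53.2% and 55.2% in injured and 51.9%, 49.4%, 53.1% and 56.5% in control libraries. There peaks were placed worse than those outside in 7 of 9 libraries, by 1.82 percentage points on average over all 9. The difference for the whole set was -2.26 percentage points with window edges moved by 500 kb (exact sign-flip permutation p = 0.0664) and -1.08 with 40 windows taken (exact sign-flip permutation p = 0.191), so the call held only for some choices of windows. That the direction turns without the packed windows is given as a value, with no test, because those windows were picked after their values were seen.

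**Figure D4:**
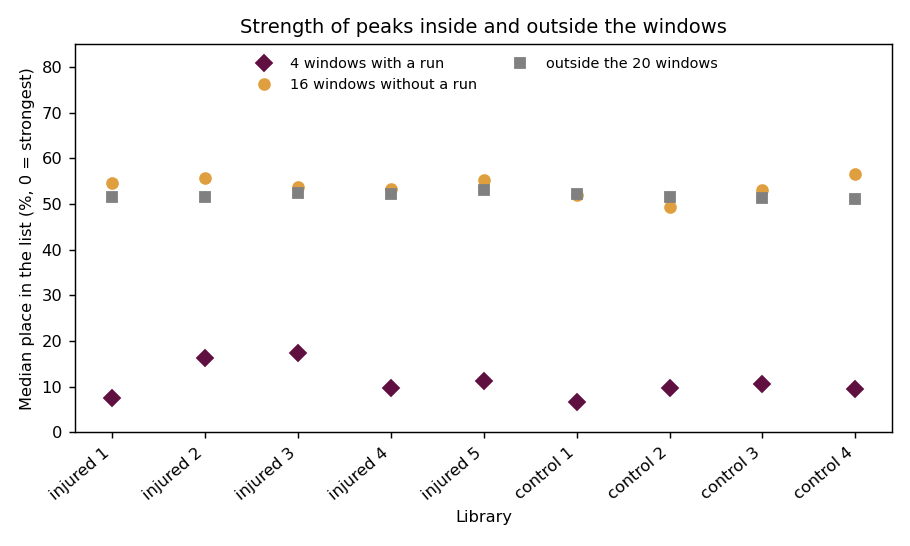
Median place of peaks in each library's list, in percent of the list with 0 as the strongest (vertical axis), for the 4 windows with a run (diamonds), the other 16 windows (circles) and the rest of the 24 chromosomes (squares), with injured libraries left of control libraries. The diamonds lie between 6.61% and 17.3%, whereas circles and squares lie between 49.4% and 56.5%.

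For the share of peaks that fell into the windows, no difference between injured and control libraries was called. With 5 and 4 libraries this does not show that the groups are alike. The share was 6.54%, 6.11%, 7.04%, 6.67% and 6.99% in injured libraries 1 to 5, and 7.01%, 5.48%, 5.92% and 5.79% in control libraries 1 to 4. Control library 1 lay among the injured libraries and the other control libraries lay below them all. The mean was 6.67% ± 0.377 in the 5 injured libraries and 6.05% ± 0.668 in the 4 control libraries (SD). The difference was 0.620 percentage points (exact permutation p = 0.127, two-sided, and 0.254 after adjustment over 4 such comparisons). The smallest p that all assignments of 5 and 4 libraries allow is 0.00794. Without control library 1 it was 0.941 percentage points with an exact permutation p of 0.0179, so 1 library decides the side of the threshold. In the lists of equal length the mean shares were 7.03% in injured and 6.94% in control libraries, and the difference was 0.0886 percentage points (exact permutation p = 0.881).

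Of the other 3 values, width and place did not pass either. The median width inside averaged 266 ± 40.2 bp in the injured and 251 ± 27.1 bp in the control group (SD; exact permutation p = 0.548, and 0.603 after adjustment). The median place inside averaged 45.8% ± 2.89 in the injured and 44.9% ± 2.77 in the control group (SD; exact permutation p = 0.603, and 0.603 after adjustment). Recurrence counted among the 4 comparisons, but it feeds the sum by which the windows were chosen. It is thus given as a description. A second library had a peak in the same region for 82.2% ± 3.60 of the peaks inside in the injured and 77.1% ± 2.82 in the control group (SD). Outside the windows these shares ranged from 64.4% to 75.8% in injured and from 63.1% to 65.7% in control libraries. They were thus higher in most injured libraries outside as well, and the injured lists were the shorter ones, whose part was not tested.

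Windows 12 and 4 had a higher share in injured libraries before adjustment. Window 12, at 42 to 43 Mb of chromosome 11, held 0.333%, 0.331%, 0.362%, 0.291% and 0.455% of the peaks in injured libraries 1 to 5, and 0.260%, 0.311%, 0.246% and 0.204% in control libraries 1 to 4. Only injured library 4, below control library 2, kept the groups from being separate. The means were 0.354% ± 0.0619 in injured and 0.255% ± 0.0443 in control libraries (SD), with an exact permutation p of 0.0238 and an adjusted p of 0.968 over the 1273 windows tested. Window 4, at 12 to 13 Mb of chromosome 24, held 0.422%, 0.316%, 0.387%, 0.400% and 0.536% in injured and 0.340%, 0.259%, 0.356% and 0.249% in control libraries. Here too the groups overlapped through a single injured library, library 2. Its means were 0.412% ± 0.0797 in injured and 0.301% ± 0.0549 in control libraries (SD; exact permutation p = 0.0476, and 0.968 after adjustment). With the smallest p at 0.00794, an adjusted p over 1273 windows can pass only where many windows reach that floor. The adjusted values could thus hardly come out otherwise. Among the 1273 windows 4.4% passed unadjusted, 1.49% being higher in the injured group and 2.91% in the control group, and 0 passed after adjustment. With 20 windows a count of 2 is 10%, and it is too small to be set apart from that background. It fell to 1 without injured library 4 or control library 2, to 0 without injured library 1, 3 or 5 or control library 1, 3 or 4, and was 2 without injured library 2. The 2 were then not the same pair. Window 12 still overlapped through injured library 4, while the groups no longer overlapped in window 13. With 4 libraries in each group only a window without overlap can reach the threshold.

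Neither of these 2 windows passed in the lists of equal length. Window 4 then held 94, 58, 47, 71 and 73 peaks in injured and 81, 61, 81 and 78 in control libraries, and its mean share was lower in injured libraries (difference -0.0594 percentage points, exact permutation p = 0.5). Window 12 kept its direction (0.0926 percentage points, exact permutation p = 0.0714). Windows 2 and 20 passed unadjusted instead, in opposite directions. Window 2, on chromosome 16, had 49, 60, 51, 59 and 46 peaks in injured and 108, 87, 56 and 60 in control libraries (exact permutation p = 0.0476, and 0.827 after adjustment). Window 20, on chromosome 24, had 38, 26, 40, 33 and 38 peaks in injured and 29, 21, 22 and 27 in control libraries (exact permutation p = 0.0317, and 0.827 after adjustment). The 2 windows are 10% of the 20. In the equal-length lists 5.45% of 1229 windows passed unadjusted, 2.12% being higher in the injured group and 3.34% in the control group, and 0 passed after adjustment. The same floor of p limits the adjusted values there.

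**Figure D5:**
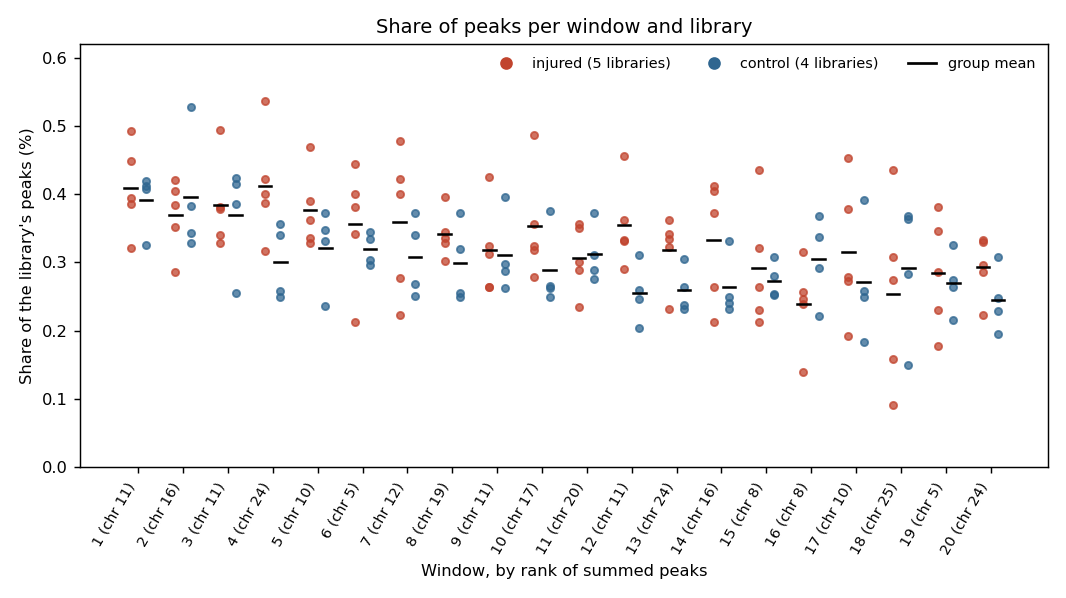
Share of each library's peaks on the 24 chromosomes (vertical axis, in percent) that lay in each of the 20 windows (horizontal axis, by rank), with injured libraries (red) left of control libraries (blue) and a line at each group's mean. The groups overlap in every window, and window 18 on chromosome 25 has the widest spread, from 0.0906% to 0.435% in injured libraries.

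Window 18 varied most between libraries. It held 102, 32, 11, 50 and 42 peaks in injured libraries 1 to 5, and 91, 40, 87 and 100 in control libraries 1 to 4. The coefficient of variation of its share was 42.7%, against 13.5% to 31.2% in the other 19 windows. High and low libraries occurred in both groups, and the shares averaged 0.253% ± 0.134 in the 5 injured and 0.291% ± 0.102 in the 4 control libraries (SD; exact permutation p = 0.675). Window 1, the densest of all, varied least, with 105, 78, 39, 72 and 67 peaks in injured and 105, 110, 96 and 115 in control libraries.

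Windows 2, 3 and 5 complete the first 5 in order. Window 2 held 67, 82, 51, 70 and 48 peaks in injured and 132, 102, 81 and 116 in control libraries. Window 3 held 77, 100, 46, 62 and 52 in injured and 106, 68, 98 and 136 in control libraries. Window 5 held 77, 68, 57, 66 and 53 in injured and 93, 63, 82 and 117 in control libraries. The control numbers were the higher ones on average, and so were the lengths of the control lists. As shares of their lists these windows averaged 0.370%, 0.385% and 0.377% in injured and 0.395%, 0.370% and 0.322% in control libraries, with exact permutation p of 0.651, 0.810 and 0.246.

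Few regions of the windows separated the groups completely. Of the 2165 member regions that were detected in 2 to 7 libraries, 9 were detected in all 4 control and 0 injured libraries, and 0 in all 5 injured and 0 control libraries. The 9 regions are 0.416% of those tested, and among all 44043 such regions of the series 0.35% were of this kind, with 0.0136% of the opposite kind. A share so near the background is no result about the windows, and without 1 library the count went up to between 12, without injured library 3, and 25, without control library 3. Windows 2, 3, 5, 6, 8, 14, 17 and 20 contained them, 2 of them in window 2. Best placed was the region at 8243741 to 8244378 of chromosome 5, in window 6, whose median place was the best 10.6% of the control lists.

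After Benjamini-Hochberg adjustment, Fisher's exact test called 0 of these regions (lowest adjusted p = 0.753). The smallest p that 5 and 4 libraries allow in this test is 0.00794, and only complete separation reaches it. Over 44043 regions none can pass unless a large part of them is separated in this way. The 0 thus does not show that the groups are alike. Before adjustment 4 passed with more injured and 83 with more control libraries at p below 0.05, which are 0.185% and 3.83% of the members tested, against 0.213% and 4.27% of all regions. The 4 were named after their values had been seen. The regions at 39721372 to 39721930 of chromosome 11 (window 1) and at 7053067 to 7053375 of chromosome 17 (window 10) were detected in 4 injured and 0 control libraries. Those at 5936753 to 5937180 of chromosome 16 (window 14) and at 15559882 to 15560493 of chromosome 8 (window 15) were detected in 5 injured and 1 control library.

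In the equal-length lists 2 member regions were detected in all injured and 0 control libraries and 3 in all control and 0 injured libraries, out of 1203 tested (0.166% and 0.249%, against 0.0346% and 0.212% over the series). The 2 were the region of window 14 just named and one at 8066774 to 8067340 of chromosome 11 (window 9), which in the full lists was detected in 3 control libraries as well. The 3 were the region of window 6 on chromosome 5 given above and those at 8602520 to 8603774 of chromosome 11 (window 9) and at 36395411 to 36396040 of chromosome 16 (window 2). In the full lists these last were also detected in 2 and 1 injured libraries, so only the region of window 6 was found in the control group alone at both list lengths. Before adjustment 11 passed with more injured and 23 with more control libraries there, which are 0.914% and 1.91%, against 0.674% and 2.43% over the series, and 0 passed after it. These counts are small, and the limit on the adjusted p given above holds here too.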

How the data were processed

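The authors deposited 1 peak list per library, with positions and a score for each peak. Among the tools in the submitters' processing notes are MACS2 and Bowtie2, besides bedtools, Picard and SAMtools, and the build is GRCz11; their order is not recorded. The sources used here do not give the peak threshold, any shift of reads for the transposase, or the handling of duplicates and of reads with several matches, steps that can change the number of peaks in repeated sequence; this was not tested. The score deposited by the authors has no stated scale (lowest value 13) and served only to rank peaks within a list, with ties ordered by width and position. Lists held 0 overlapping peaks.

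Shares are percentages of a library's peaks on the 24 chromosomes. Groups were compared by exact permutation over all assignments of the libraries, with Benjamini-Hochberg adjustment over all windows of at least 18 summed peaks, and regions by Fisher's exact test over the whole series (Python 3.11.15, SciPy 1.17.1, statsmodels 0.14.6). Alternatives were equal-length lists, the better-ranked 50% of peaks, other choices and edges of windows, a 50 bp merge, a replicate block and leaving out each library. Named were the first 5 windows, those passing unadjusted and their most recurrent regions, the most and least packed windows and the 5 best-placed members. The windows, tests and named items were chosen with earlier results of these data known, and the runs after the layouts had been seen.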

Additional observations from a re-analysis of the deposited data

Results flagged for a closer look

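In window 1 (chromosome 11, 39 to 40 Mb) control library 4 had a share of 0.325%, far below the other control libraries, the gap to the nearest of them taking up 0.862 of the range of the group. In window 10 (chromosome 17, 7 to 8 Mb) control library 1 had a share of 0.376%, far above the others, with a gap of 0.865 of the range. In control library 3 the median width inside minus outside the windows was 15 bp, far below the other control libraries (0.897 of the range). Such a gap turns up by chance in about 1 of 20 groups, and 54 groups were looked at, so about 2.7 were to be expected, against the 3 found.

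In the equal-length lists the median width inside minus outside was 31.9 ± 7.40 bp (SD, n = 5) in injured and 49.3 ± 13.6 bp (SD, n = 4) in control libraries, a difference of -17.35 bp (exact permutation p = 0.0397, two-sided, unadjusted). In the lists as deposited the values were 23.6 ± 3.86 bp (SD, n = 5) and 25.4 ± 6.94 bp (SD, n = 4; exact permutation p = 0.579). These are 2 of 4 such comparisons, and 1 of the 4 fell below the threshold.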

How the results depend on the processing

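The difference in share kept its direction and stayed on its side of the threshold under each alternative to the choice of lists and windows. Its size did not hold. In the equal-length lists it was 0.0886 percentage points (exact permutation p = 0.881), against 0.620 in the lists as deposited. With windows chosen with equal weight per library it was larger, 0.847 percentage points (exact permutation p = 0.0714). Without 1 library it ranged from 0.430 to 0.941 percentage points, with p below the threshold only without control library 1. With the libraries paired by number in a replicate block it was 0.540 (exact sign-flip permutation p = 0.25). Injured library 5 had no partner and was left out, and the pairs are too few for this test to reach the threshold. Same-numbered libraries correlated in their deviations from the group mean at -0.287 to 0.0424, and 0 of 8 correlated best with their own number. No pairing by number was thus seen, and shared handling was not tested.

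Of the windows 2 passed unadjusted, but 0 in the better-ranked 50% of peaks, 1 with window edges moved by 500 kb, 1 among 10 windows and 0 to 2 without 1 library. Group-exclusive regions numbered 9, but 5 in the equal-length lists, 5 in the better-ranked 50%, 4 with moved edges, 14 in 40 windows and 12 to 25 without 1 library, where fewer libraries have to agree. The width difference ranged from 23.8 to 25.6 bp without 1 library and was 10.2 bp with the packed windows counted as outside. The difference in place ranged from -6.94 to -5.94 percentage points without 1 library. It was -2.26 with moved edges (exact sign-flip permutation p = 0.0664), -1.08 in 40 windows (exact p = 0.191) and 2.32 with the packed windows counted as outside, an alternative chosen after seeing the data. The cause of the smaller values was not tested. Chosen with equal weight per library, 18 of the 20 windows were the same. Read depth, which is unknown, limits what an absent peak can show.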
